A study of Mus musculus with 9 samples.

Results

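Among 10 EMT transcription factors picked by gene symbol, Prrx2 changed most in CD47 knockout (KO) LLC cells, and it rose in both KO clones. Its mean level was 1.69 ± 0.16 CPM in wild-type (WT) cells, 7.93 ± 1.37 CPM in KO clone E3 and 7.72 ± 1.71 CPM in KO clone E5 (SD, n = 3 each). Its paralog Prrx1 fell in both clones, with 412 ± 21.6 CPM in WT cells against 209.5 ± 41.2 CPM (clone E3) and 289.6 ± 23.4 CPM (clone E5; SD, n = 3 each). Snai1 rose while Snai2 and Tcf3 fell in clone E3, and these 3 genes and Prrx1 differed between the clones. The calls of Prrx1 and Tcf3 between the clones, and of Prrx1 in clone E5, did not hold when certain single libraries were left out. CPM are counts scaled to a common library size, with the TMM correction for library composition.

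The genes described are 10 transcription factors linked to the epithelial-to-mesenchymal transition (EMT), picked by gene symbol: Snai1, Snai2, Zeb1, Zeb2, Twist1, Twist2, Prrx1, Prrx2, Tcf3 and Tcf4. All 10 were found among the 50813 genes listed, each on 1 row, and all 10 passed the filter on low counts that left 14593 genes for testing. In EMT, epithelial cells loosen their junctions and take on a motile, fibroblast-like state, and this set of factors is known for driving it in embryos and in carcinomas. The SNAI factors (zinc fingers), the ZEB factors (zinc fingers with a homeodomain) and the basic helix-loop-helix (bHLH) factors TWIST, TCF3 and TCF4 bind DNA at E-boxes, and SNAI and ZEB factors repress E-cadherin there. PRRX1 and PRRX2 are paired-related homeobox factors of embryonic mesenchyme, and TCF3 (E2A) and TCF4 (E2-2) are the E proteins with which TWIST factors pair.

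The cells were LLC, a mouse Lewis lung carcinoma line grown in culture, sequenced as 9 RNA-seq libraries, with 3 replicates for each of WT, KO E3 and KO E5. The KO clones were made with Cas9 ribonucleoproteins aimed at Cd47, the gene of a surface protein that signals to phagocytes. All lines were sampled in vitro, in medium with serum. WT is 1 line and each KO genotype is 1 clone with 3 replicates, so that CD47 loss and clonal origin cannot be told apart. Comparing the clones with each other does not separate them either, as each is a single clone and their Cd47 RNA levels differed. The labels do not say whether replicates were separate cultures, while the study's methods describe them as biologically independent. The p-values measure the spread between libraries within lines. That spread was estimated over all 9 libraries together, so a comparison of clone E5 with WT also carries the spread of clone E3.

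Cd47 itself stood at 179 to 187 CPM in WT cells, 36.8 to 49.6 CPM in clone E3 and 15.5 to 18.6 CPM in clone E5. Libraries held 44257404 to 55095219 counts. Replicate 3 of clone E3 stood apart: the chi-square statistic of its counts against each other E3 library, divided by its degrees of freedom, was 185 and 222, where the other replicate pairs gave 4.68 to 37.2. For the factors, and for some other genes named below, results that rest on it are given with and without it. The remaining values rest on all libraries, and some of their calls may change without it. The cells matched a mesenchymal label, with Vim, Cdh2, Sparc and Fn1 summing to 6180 to 8660 CPM, Cdh1 at no more than 6 counts in any library and Epcam at 0. Of the other epithelial markers, Krt8 and Krt18 were expressed, and the 5 together summed to 451 to 459 CPM in WT cells, 127 to 199 CPM in clone E3 and 896 to 958 CPM in clone E5. Immune markers were low (1 of 6 above 1 CPM, summing to 2.35 to 3.45 CPM, with Cd3e at 0), as were endothelial (0 of 4 above 1 CPM, summing to 0.0185 to 0.253 CPM) and lung epithelial ones (1 of 6 above 1 CPM, summing to 0.97 to 2.79 CPM, with Sftpc, Sftpb, Nkx2-1 and Scgb1a1 at 0).

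In clone E3 against WT, 5 of the 10 factors passed an FDR of 0.05, where 30.5% of all tested genes did: Prrx2 and Snai1 rose, and Prrx1, Snai2 and Tcf3 fell. In clone E5 against WT, 2 of 10 passed, against 20.6% of all tested genes: Prrx2 rose and Prrx1 fell. Between the clones, 4 of 10 passed, against 31.9% of all tested genes: Prrx1, Snai2 and Tcf3 were higher in clone E5 and Snai1 was higher in clone E3. In each direction, 15.7% of tested genes rose and 14.7% fell in clone E3, while 8.96% rose and 11.7% fell in clone E5. Of all tested genes, 14.7% were higher and 17.2% lower in clone E5 than in E3. With 10 factors, these counts are a description beside the background and not a result about the group. Differentially expressed genes (DEGs), which also needed an absolute log2 fold change above 1, were Prrx2 and Snai1 in clone E3, both higher (9.82% of all tested genes were DEGs, 5.43% higher and 4.39% lower). In clone E5 the DEG was Prrx2, also higher (8.21%, with 2.69% higher and 5.52% lower), and between the clones it was Snai1, lower in E5 (11%, with 3.49% higher and 7.52% lower). Prrx1 and Prrx2 passed in the same direction in both clones, as 8.48% of tested genes did. The clones share the WT libraries in these comparisons. The libraries of the lines did not overlap for 9 of 10 factors in clone E3 against WT (45.4% of all tested genes), the exception being Zeb2, for 6 in clone E5 against WT (55.4%) and for 5 between the clones (44.6%).

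The median log2 fold change of the 10 factors was -0.14 in clone E3 and -0.05 in clone E5, beside 0.01 and -0.0023 over all tested genes. Their median absolute log2 fold change was 0.38 in clone E3 and 0.15 in clone E5, beside 0.31 and 0.25 over all tested genes. Called changes went in both directions within the set, in either clone.

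**Figure D1:**
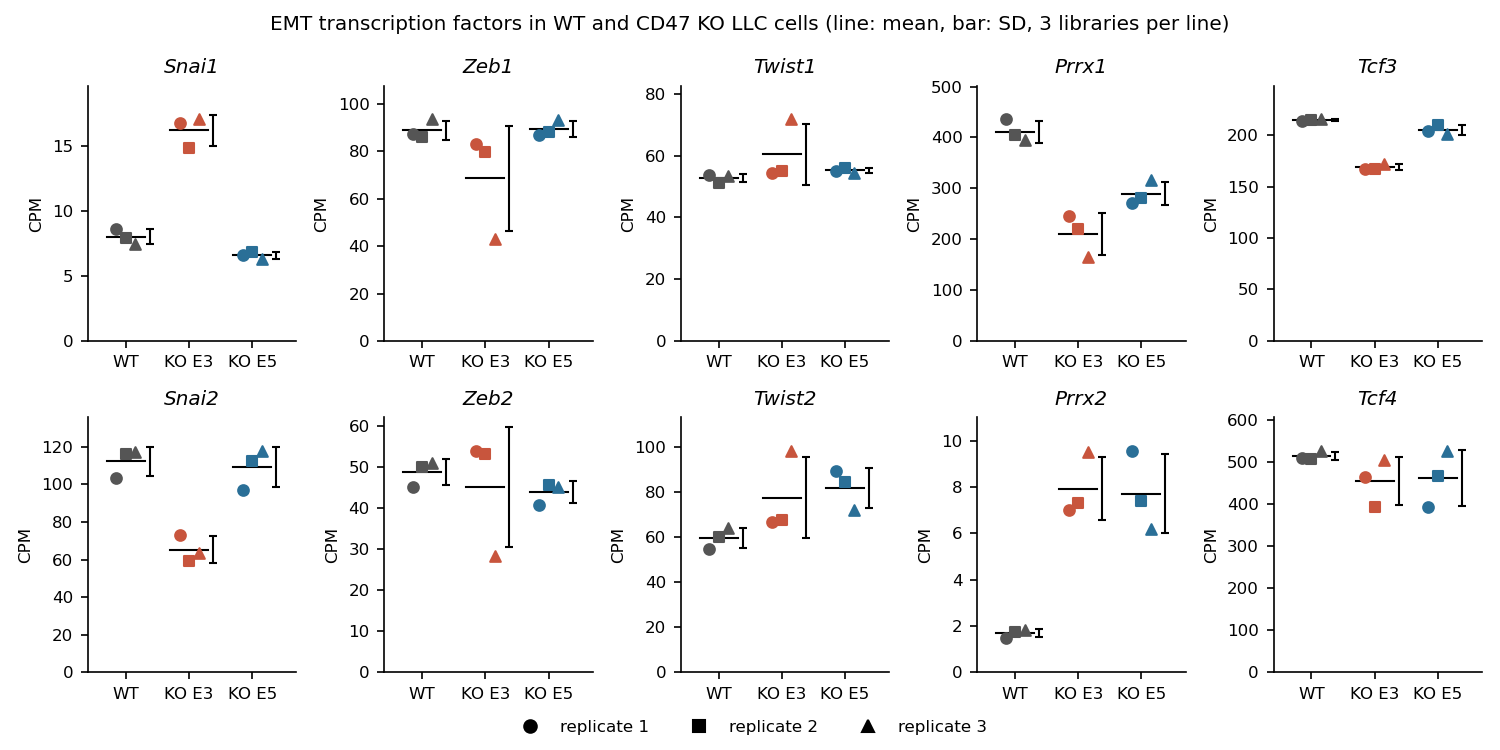
Level of each factor in CPM (y axis, from 0) in every library of WT, KO E3 and KO E5 cells. Points are libraries with the replicate number as the shape, lines are means and bars are SD (n = 3). Prrx2 lies at 6.2 to 9.57 CPM in the 6 KO libraries and at 1.5 to 1.81 CPM in WT cells, and replicate 3 of KO E3 is apart from its replicates for Zeb1, Zeb2, Twist1 and Twist2.

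Prrx2 (ENSMUSG00000039476, GRCm39 chr2:30724984-30771263, plus strand) was the least counted of the factors in WT cells and in clone E3. The WT libraries gave 1.5, 1.75 and 1.81 CPM, from 75, 83 and 86 reads. The libraries of clone E3 gave 7.0, 7.29 and 9.5 CPM, and those of clone E5 gave 9.57, 7.4 and 6.2 CPM. Every KO library was above every WT library, and the clones overlapped. The log2 fold change was 2.23 ± 0.20 (SE) in clone E3 (FDR = 4.19e-05) and 2.19 ± 0.20 in clone E5 (FDR = 3.43e-05), or 4.69-fold and 4.57-fold. Of the 14593 tested genes, 155 had a larger positive log2 fold change in clone E3 and 70 in clone E5. It was 2.08 (FDR = 5.11e-06) in clone E3 without replicate 3 of that clone. The clones differed by -0.04 with a 95% interval of -0.44 to 0.36, so differences within that interval were not resolved.

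Prrx1 (ENSMUSG00000026586, GRCm39 chr1:163072688-163141279, minus strand) moved the other way from a high level. WT libraries gave 436, 404 and 394 CPM. The libraries of clone E3 gave 245, 219 and 164 CPM, and those of clone E5 gave 271, 282 and 316 CPM. The 3 lines did not overlap, with WT highest and clone E3 lowest. The log2 fold change was -0.97 ± 0.14 (FDR = 0.000671) in clone E3 and -0.51 ± 0.14 (FDR = 0.0279) in clone E5, and the clones differed by 0.47 ± 0.14 (FDR = 0.0282). Leaving out replicate 3 of clone E3 gave -0.83 (FDR = 1.75e-05), -0.50 (FDR = 0.000259) and 0.33 (FDR = 0.0082). The call in clone E5 did not hold when any 1 of 5 libraries was left out (the 3 of WT, and replicates 1 and 2 of clone E5), with FDRs of 0.0663 to 0.11. The difference between the clones did not hold without WT replicate 2 or any 1 library of clone E5, with FDRs of 0.0501 to 0.101.

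Because the PRRX proteins are close relatives, the pair was also compared as a share. Length was counted over the annotated exons that lie within the gene bounds of the deposited table. These are 1961 of 5117 annotated bases for Prrx2 and 14684 of 16550 for Prrx1. In CPM per kilobase of this length, Prrx1 made up 97.5, 96.9 and 96.7% of the pair in WT cells. It made up 82.4, 80.1 and 69.8% in clone E3 and 79.1, 83.6 and 87.2% in clone E5. The WT libraries lay above all KO libraries, with mean differences from WT of -19.6 percentage points in clone E3 and -13.7 in clone E5. The exact permutation test (two-sided) gave p = 0.1 for each, the smallest that 3 against 3 libraries allow (adjusted p = 0.188 over 15 such comparisons). Over all annotated exons, Prrx1 averaged 98.7% of the pair in WT cells, 88.7% in clone E3 and 92% in clone E5. Over the canonical transcript, it was 99.5% of the pair in WT cells, 95.1% in clone E3 and 96.6% in clone E5. The size of the difference thus depended on the length used. Its direction cannot depend on it, because a gene has the same length in every library, so this is no separate check. Prrx1 stayed the more abundant gene of the pair in every library.

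The 250 bases before the start of Prrx1 and Prrx2 are shown because these paralogs moved in opposite directions, and those of Snai1 because it was the other DEG. The sequences are from RefSeq for the GRCm38.p6 build, which differs from the GRCm39 build of the gene positions above, and capitals mark E-boxes (CANNTG, which reads the same on both strands).
Prrx1, chr1:163313651-163313900, minus strand: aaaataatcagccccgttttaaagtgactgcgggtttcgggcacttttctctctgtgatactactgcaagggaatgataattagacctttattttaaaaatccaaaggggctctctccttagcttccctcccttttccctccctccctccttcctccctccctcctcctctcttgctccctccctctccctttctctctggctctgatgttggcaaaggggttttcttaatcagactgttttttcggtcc
Prrx2, chr2:30845117-30845366, plus strand: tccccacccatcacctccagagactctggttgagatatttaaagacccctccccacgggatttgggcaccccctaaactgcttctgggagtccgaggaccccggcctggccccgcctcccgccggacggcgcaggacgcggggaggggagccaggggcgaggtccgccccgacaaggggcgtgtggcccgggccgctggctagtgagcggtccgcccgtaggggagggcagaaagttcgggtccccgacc
Snai1, chr2:167537945-167538194, plus strand: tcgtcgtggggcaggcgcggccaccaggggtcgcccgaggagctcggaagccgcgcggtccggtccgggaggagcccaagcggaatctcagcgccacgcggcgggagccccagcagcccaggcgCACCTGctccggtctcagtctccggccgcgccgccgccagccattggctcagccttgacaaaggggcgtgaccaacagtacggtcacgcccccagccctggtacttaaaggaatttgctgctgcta

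The windows of the PRRX genes differ in base composition, with 47.6% G and C before Prrx1 and 70% before Prrx2, and neither holds an E-box. Snai1 has 1 E-box, CACCTG, whose first base lies at position -126 from the start. Of 32817 windows of the same length in the RefSeq table, 66.2% hold CANNTG and 17.2% hold CACCTG or CAGGTG, the forms that SNAI and ZEB factors prefer. Promoter sequences matched 7 of the 10 factors, and among the rest of these Tcf3 has 1 E-box while Zeb2, Twist1 and Twist2 have 0. Snai2, Zeb1 and Tcf4 were not among those matched. These matches describe the letters in the windows and do not show binding.

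Snai1 (ENSMUSG00000042821, GRCm39 chr2:167380115-167384734, plus strand), which encodes the SNAIL repressor of E-cadherin, changed in clone E3. WT libraries gave 8.63, 7.93 and 7.47 CPM. The libraries of clone E3 gave 16.8, 14.9 and 17.1 CPM, and those of clone E5 gave 6.64, 6.85 and 6.27 CPM. Clone E3 lay above all other libraries and clone E5 below all of them. The log2 fold change was 1.02 ± 0.11 (FDR = 0.000123) in clone E3, -0.28 ± 0.11 (FDR = 0.1) in clone E5 and -1.30 ± 0.11 (FDR = 1.46e-05) for clone E5 against E3. Without replicate 3 of clone E3, the first value was 0.98 (FDR = 2.03e-05), which takes Snai1 out of the DEGs of that clone, as did leaving out WT replicate 3 (0.97) or KO E3 replicate 1 (0.99), and the second was -0.28 with an FDR of 0.0393.

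Snai2, which encodes SLUG, fell where Snai1 rose. WT libraries gave 103, 116 and 117 CPM, the libraries of clone E3 gave 72.9, 59.3 and 63.6 CPM, and those of clone E5 gave 97.1, 112 and 118 CPM. Clone E3 was below all other libraries, and clone E5 overlapped WT. The log2 fold change was -0.78 ± 0.12 (FDR = 0.000706) in clone E3, -0.04 in clone E5 with a 95% interval of -0.29 to 0.21, and 0.74 ± 0.11 (FDR = 0.000833) for clone E5 against E3. The E3 value was -0.76 (FDR = 0.000107) without replicate 3 of that clone.

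Per kilobase of exons within the deposited bounds, Snai1 made up 9.45, 7.85 and 7.36% of the SNAI pair in WT cells, 22.3, 23.8 and 25.1% in clone E3, and 7.85, 7.06 and 6.22% in clone E5. The mean share was 15.5 percentage points higher in clone E3 than in WT, without overlap (exact permutation p = 0.1, adjusted p = 0.188). In clone E5 the difference from WT was -1.17 points and the libraries overlapped (exact permutation p = 0.3, adjusted p = 0.346). Snai2 was the more abundant gene of the pair in all libraries. Snai3, the remaining SNAI gene, had at most 4 counts in any library.

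**Figure D2:**
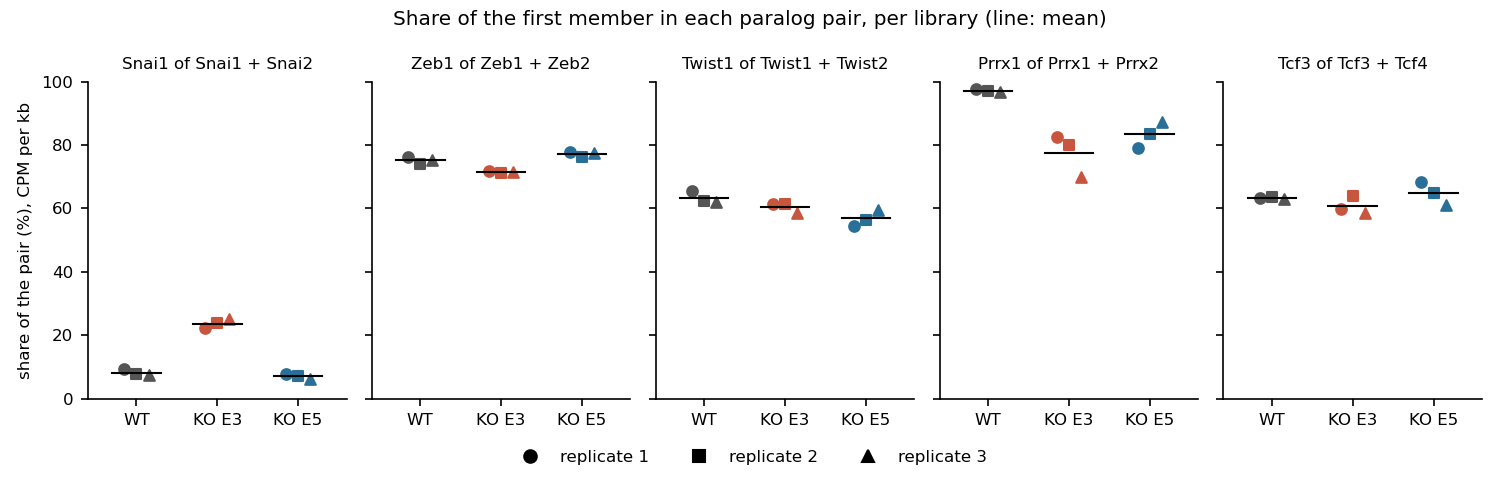
Share of the first-named gene in each paralog pair, in percent of the pair's summed CPM per kilobase of exons within the deposited gene bounds (y axis, 0 to 100), in every library. Points are libraries with the replicate number as the shape and lines are means (n = 3). The PRRX pair is lower in both KO clones than in WT cells, the SNAI pair is higher in KO E3, and the TCF pair overlaps among the lines.

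Tcf3 had little spread between replicates. WT libraries gave 214, 215 and 215 CPM, clone E3 gave 167, 168 and 172 CPM, and clone E5 gave 204, 209.9 and 201 CPM. All 3 lines were apart. The log2 fold change was -0.35 ± 0.08 (FDR = 0.00815) in clone E3 and -0.07 ± 0.08 (FDR = 0.62) in clone E5, and clone E5 was higher than E3 by 0.28 ± 0.08 (FDR = 0.0211). The E3 change remained at an FDR of 0.0427 or lower whichever library was left out. The difference between the clones did not hold without WT replicate 2 or KO E5 replicate 1 or 2, with FDRs of 0.0516, 0.0595 and 0.0942.

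Tcf4, the most counted of the factors, gave 511, 509 and 526 CPM in WT cells, 465, 394 and 506 CPM in clone E3, and 395, 468 and 528 CPM in clone E5. The libraries of clone E3 lay below those of WT, while clone E5 overlapped WT. The log2 fold change was -0.18 (95% interval -0.46 to 0.10, FDR = 0.323) in clone E3 and -0.15 (-0.44 to 0.13, FDR = 0.456) in clone E5. Without replicate 3 of clone E3 these were -0.27 (FDR = 0.0691) and -0.15 (FDR = 0.251). Tcf3 was 62.9 to 63.6% of the TCF pair per kilobase in WT cells, 58.5 to 63.8% in clone E3 and 61.2 to 68.2% in clone E5, and the lines overlapped.

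The symbols Tcf3 and Tcf4 are E proteins here and not the WNT factors that older usage gave those names. The WNT factors are Tcf7l1, which was higher in clone E3 by 0.48 (FDR = 0.00462) with a log2 fold change of -0.16 (FDR = 0.302) in clone E5, and Tcf7l2, with 0.21 (FDR = 0.164) in clone E3 and higher by 0.38 (FDR = 0.028) in clone E5. Tcf7l2 was called higher in both clones (FDR = 0.0425 and 0.00276) when replicate 3 of clone E3 was left out.

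Zeb1 and Zeb2, repressors of epithelial genes, passed the test in no comparison of the 9 libraries. Zeb1 gave 87.4, 86.0 and 93.6 CPM in WT cells, 83.1, 79.6 and 43.0 CPM in clone E3, and 86.7, 88.0 and 93.1 CPM in clone E5. Zeb2 gave 45.1, 50.2 and 50.9 CPM in WT cells, 54.0, 53.3 and 28.4 CPM in clone E3, and 40.9, 45.6 and 45.2 CPM in clone E5. Replicate 3 of clone E3 was the lowest library for each gene, while the other 8 lay at 79.6 to 93.6 CPM for Zeb1 and 40.9 to 54.0 CPM for Zeb2. In clone E5 the log2 fold change of Zeb1 was 0.01 with a 95% interval of -0.44 to 0.45 on 9 libraries.

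Without replicate 3 of clone E3, Zeb1 had log2 fold changes of -0.13 (FDR = 0.122) in clone E3 and 0.01 (FDR = 0.896) in clone E5. For Zeb2 in clone E3, leaving that library out turned -0.11 (FDR = 0.732) into 0.14 (FDR = 0.158), and Zeb2 was then lower in clone E5 than in clone E3 (-0.28, FDR = 0.0087). The share of Zeb1 in the ZEB pair was 71.9, 71.3 and 71.6% in the 3 libraries of clone E3, so replicate 3 did not stand apart in this ratio. It was 76.3, 74 and 75.4% in WT cells and 77.9, 76.3 and 77.4% in clone E5. Clone E3 lay below WT without overlap, with a difference of -3.63 points (exact permutation p = 0.1, adjusted p = 0.188).

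Twist1 and Twist2, bHLH factors of mesoderm and neural crest, gave positive log2 fold changes against WT in both clones, but none passed the test on 9 libraries. Twist1 gave 53.7, 51.1 and 53.3 CPM in WT cells, 54.5, 54.9 and 71.8 CPM in clone E3, and 55.1, 56.1 and 54.5 CPM in clone E5. Twist2 gave 54.97, 60.2 and 64.0 CPM in WT cells, 66.7, 67.6 and 98.4 CPM in clone E3, and 89.3, 84.4 and 72.0 CPM in clone E5. The KO libraries of each gene lay above the WT libraries, and replicate 3 of clone E3 was the highest of all.

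For Twist2 the log2 fold change was 0.38 ± 0.16 (FDR = 0.094) in clone E3 and 0.46 ± 0.16 (FDR = 0.0647) in clone E5. Without replicate 3 of clone E3 it was 0.17 (FDR = 0.166) in clone E3, and Twist2 was higher in clone E5 by 0.46 (FDR = 0.00086). DESeq2 on 9 libraries also placed the E5 value under the threshold, at 0.46 (FDR = 0.0398). For Twist1 the log2 fold changes were 0.20 (95% interval -0.06 to 0.45) in clone E3 and 0.07 (-0.19 to 0.32) in clone E5, and 0.05 in clone E3 without replicate 3. The share of Twist1 in the TWIST pair was 61.9 to 65.6% in WT cells, 58.7 to 61.4% in clone E3 and 54.6 to 59.6% in clone E5. Over the canonical transcripts the mean shares were 41.7, 38.8 and 35.4%, so which Twist gene was more abundant depended on the length. Both KO clones lay below WT within the deposited bounds, with differences of -2.8 and -6.4 points (exact permutation p = 0.1 each, adjusted p = 0.188).

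**Figure D3:**
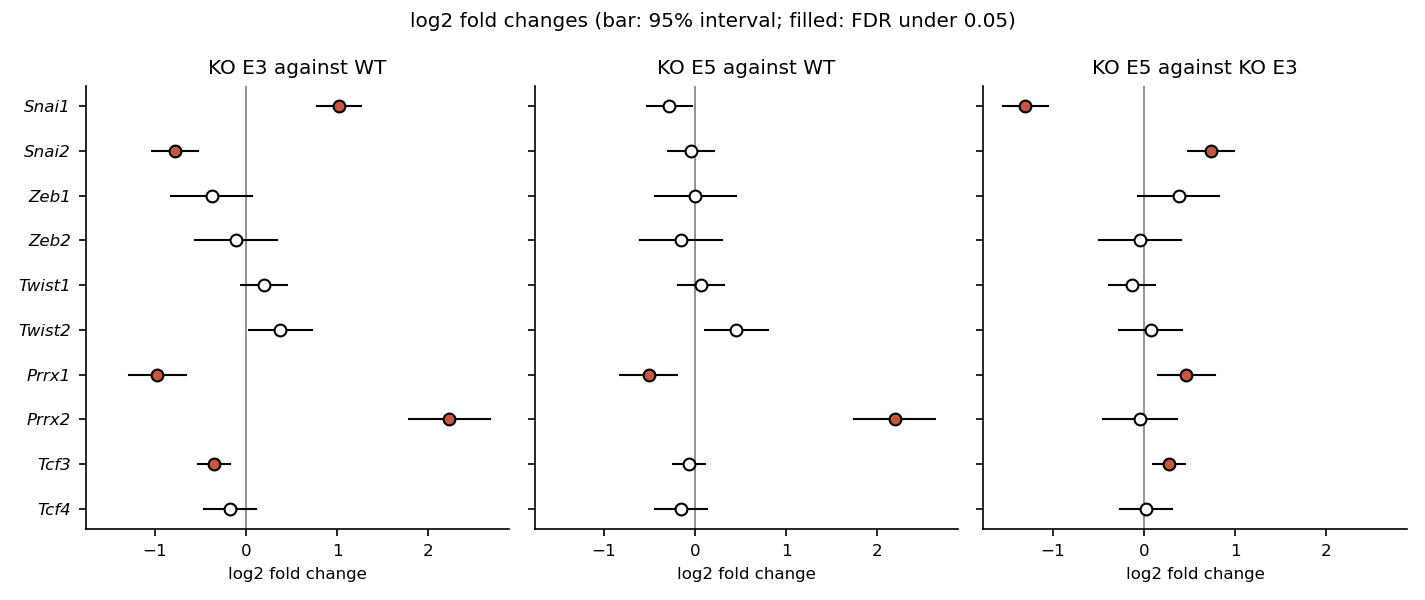
log2 fold change of each factor (x axis) for KO E3 against WT, KO E5 against WT and KO E5 against KO E3. Bars are 95% intervals from the edgeR fit of 9 libraries, and filled points passed an FDR of 0.05. Prrx2 is near 2.2 in both clones, while Snai1 is at 1.02 in KO E3 and -0.28 in KO E5.

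**Figure D4:**
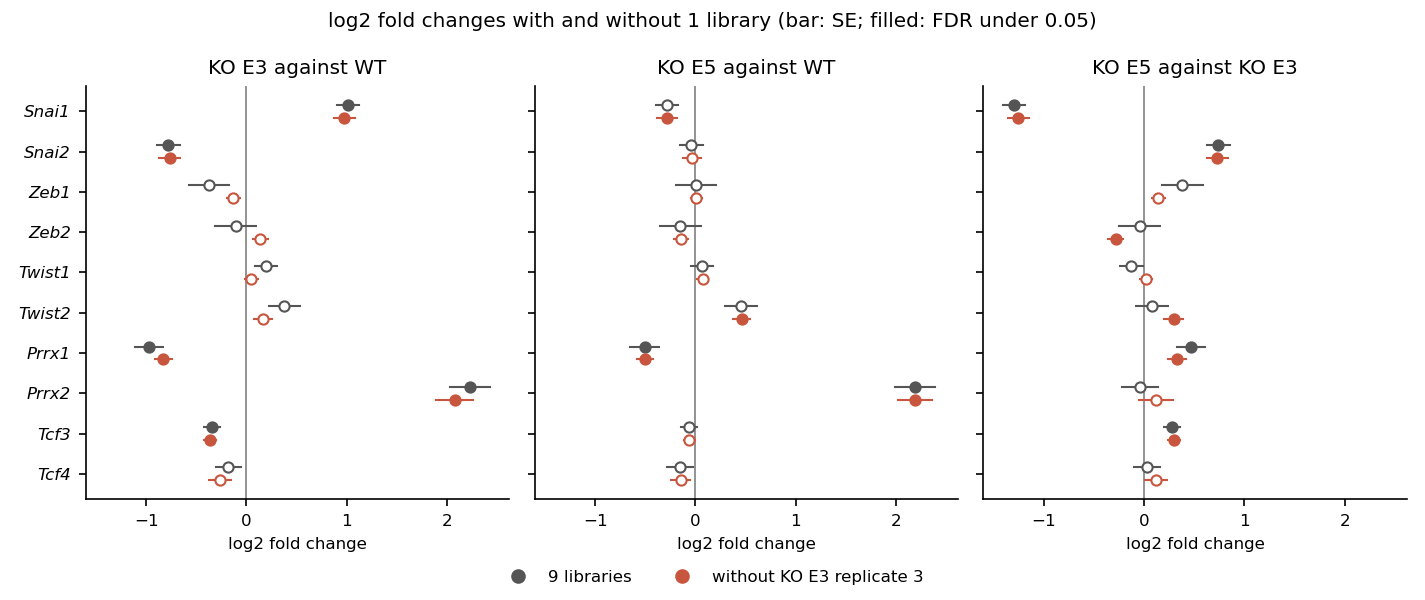
log2 fold change of each factor (x axis) in the same comparisons, from 9 libraries (grey) and without KO E3 replicate 3 (red). Bars are SE and filled points passed an FDR of 0.05. Zeb2 in KO E3 changes from -0.11 to 0.14, and the bars of most factors are shorter without the library.

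Without replicate 3 of clone E3, the factors that passed numbered 5 in clone E3 (43.2% of all tested genes passed), 4 in clone E5 (42%) and 6 between the clones (44.1%). Leaving it out added Snai1 and Twist2 in clone E5, and Zeb2 and Twist2 between the clones.

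Levels can be compared between genes only per length. In WT cells, in CPM per kilobase of annotated exons within the deposited bounds, the order was Snai2 (55.5 ± 3.87), Twist1 (32.4 ± 0.86), Tcf3 (31.5 ± 0.14), Prrx1 (28.0 ± 1.47), Twist2 (18.8 ± 1.43), Tcf4 (18.2 ± 0.34), Zeb1 (6.53 ± 0.30), Snai1 (4.94 ± 0.36), Zeb2 (2.15 ± 0.14) and Prrx2 (0.86 ± 0.08; SD, n = 3). Neighbours overlapped between Twist1 and Tcf3 and between Twist2 and Tcf4. In clone E3, Snai2 came second with 32.3 ± 3.44 behind Twist1 with 37.1 ± 6.06, and their ranges overlapped. For Prrx2 the level was 4.04 ± 0.70 in clone E3, below the 14.3 ± 2.8 of Prrx1. In clone E5 it was 3.94 ± 0.87, below the 19.7 ± 1.59 of Prrx1.

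This order depended on the length used. The annotation lists 124 transcripts for Tcf4 and 98 for Tcf3, against 1 for Snai1 and Twist1. Per kilobase of the canonical transcript, Prrx1 was first in WT cells at 69.1 ± 3.63, Tcf4 second at 57.4 ± 1.07, and Snai2 behind Tcf3 at 48.5 ± 3.38, while Prrx2 was last in WT cells under both of these lengths, at 0.37 ± 0.04.

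Paralogs can exchange reads where their sequences are identical. The longest identical stretch between the coding sequences of a pair was short in each case, at 13 bases for the TCF pair, 20 for ZEB and 23 for TWIST. Those of the SNAI and PRRX pairs are shown because a member of each was a DEG.
Snai1 and Snai2, bases 1 to 22 of each coding sequence: atgccgcgctccttcctggtca
Prrx1 and Prrx2, bases 653 to 671 of Prrx1 and 659 to 677 of Prrx2: tcaacatggccaacagcat

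These sequences are of the canonical transcripts on GRCm39. The stretch of Snai1 and Snai2 is the start of the coding sequence, which encodes the N-terminal repressor motif that SNAI factors share. Over whole transcripts, the longest identical stretch was 23 bases for the SNAI, TWIST and TCF pairs, 20 for the ZEB pair and 19 for the PRRX pair.

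Genes that overlap a factor can also share reads. Zeb2os, an antisense RNA that overlaps Zeb2, gave 0.78, 0.71 and 0.57 CPM in WT cells, 1.32, 1.18 and 2.4 CPM in clone E3 and 0.65, 0.61 and 0.56 CPM in clone E5. It was higher in clone E3 than in WT by 1.24 (FDR = 0.00923), a call that rests on all libraries. Its highest library, replicate 3 of clone E3, was the one with the least Zeb2. Replicates 1 and 2 of clone E3 also had more Zeb2os than any WT library, yet the most Zeb2 of all libraries (54.0 and 53.3 CPM). Gm29100, antisense to Twist2, gave 191 to 347 reads a library, with log2 fold changes of -0.30 (FDR = 0.0911) in clone E3 and 0.23 (FDR = 0.224) in clone E5. The RNAs Zeb1os1, Gm29101, Gm20471 and Gm37644, which overlap Zeb1, Twist2, Prrx1 and Prrx1, had at most 13 reads in any library, and the pseudogene Gm16147 in Zeb1 had 0. Whether shared reads move these values was not tested.

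Among the tested genes within 250 kb of Prrx2, 2 of 10 were higher in clone E3, beside 15.7% of all tested genes. With 10 genes this is a description and not a result about the region. These were Ptges with 0.67 (FDR = 0.000477) and Usp20 with 0.45 (FDR = 0.0043), named after their values were seen. In clone E5 the log2 fold changes of the 10 neighbours ran from -0.21 to 0.68, with FDRs of 0.192 to 0.967. Within the same distance of Prrx1, the only tested gene was Gorab, with -0.18 (FDR = 0.253) in clone E3 and -0.12 (FDR = 0.512) in clone E5.

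Some genes outside the set followed the same course over the 9 libraries. With 10433 genes searched, log2 CPM correlated best with Prrx2 for Tubb5 (Pearson r = 0.992), Acsf3 (0.985) and Capn1 (0.985). For Prrx1 they were Abhd15 (0.997), Rmnd5a (0.991) and Ern1 (0.989), and for Snai1 they were Cnrip1 (0.993), Nrbp1 (0.991) and Abhd14b (0.99). For Snai2 they were Mta1 (0.994), Glrp1 (0.993) and Slc1a5 (0.992), and for Tcf3 they were Atf1 (0.991), Hspbap1 (0.99) and Tmcc2 (0.99). The libraries fall into 3 lines, so any gene with similar steps between lines scores high, and these values are a description. The size of the steps could differ: Tubb5 was higher in mean log2 CPM by 0.70 in clone E3 and 0.72 in clone E5, far less than Prrx2.

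For each gene list, the background was 15.7% of all tested genes higher and 14.7% lower in clone E3, and 8.96% higher and 11.7% lower in clone E5. It was 43.2% called in E3 and 42% in E5 with KO E3 replicate 3 left out. The partners of the bHLH factors include Tcf12, another E protein, and the ID proteins, which bind E proteins and keep them off DNA. Of 11 genes listed, 5 were tested, and 1 was higher and 0 lower in clone E3, and 2 were higher and 1 lower in clone E5. Their median log2 fold change was 0.07 in clone E3 and -0.13 in clone E5. Id2 rose from 7.19 ± 0.33 CPM to 22.3 ± 5.08 CPM in clone E3 (log2 fold change 1.64, FDR = 5.23e-05) and 10.4 ± 0.17 CPM in clone E5 (0.54, FDR = 0.03), and was lower in clone E5 than in E3 (-1.1, FDR = 0.000376). Tcf12 had log2 fold changes of -0.25 (FDR = 0.339) and -0.23 (FDR = 0.436), and Id1 of 0.23 (FDR = 0.389) and -0.13 (FDR = 0.685). Id1 stood at -0.07 in clone E3 without replicate 3. With that library left out, Tcf12 was called lower in clone E5 (FDR = 0.0338) and was not called in clone E3 (0.762). Id3, named after its values were seen, was the 1 gene lower in clone E5 (-0.98, FDR = 0.0132), with 0.07 (FDR = 0.847) in clone E3. Scx, the gene of scleraxis, rested on 1 to 4 reads a library in WT cells, 1 or 2 in clone E3 and 11 to 27 in clone E5, where it was called higher (FDR = 0.0111).

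Of 14 tested genes among 19 other EMT-linked transcription factors, 2 were higher and 6 lower in clone E3, and 2 were higher and 2 lower in clone E5, with medians of -0.21 and -0.17. Leaving out replicate 3 of clone E3 gave 3 higher and 7 lower, and 4 higher and 5 lower. Klf4 fell in both clones, by 1.32 (FDR = 0.000155) and 1.38 (FDR = 0.000105) on the log2 scale, from 16.2 ± 1.27 CPM to 6.5 ± 0.81 and 6.23 ± 0.99 CPM. Klf8 gave 1.34, 1.54 and 1.75 CPM in WT cells and 6.22, 6.55 and 3.32 CPM in clone E3 (log2 fold change 1.8, FDR = 0.00186), and no reads in any library of clone E5. With a floor of 3 counts a library, it was at least 25-fold lower in clone E5 than in WT. Tead2, a partner of YAP, rose by 0.68 (FDR = 0.00152) in clone E3 with 0.35 (FDR = 0.0555) in clone E5. Tead2 in clone E5 had an FDR of 0.00136 without replicate 3 of clone E3.

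The homeobox relatives of the PRRX factors in mesenchyme had 5 of 14 genes tested. In clone E3 1 was higher and 2 were lower (median 0.08), and in clone E5 0 were higher and 2 lower (median -0.79, or -0.14 with Msx1, which has at most 2 reads in clone E5, taken as unchanged). Msx2, a homeobox factor of limb and skull mesenchyme, fell from 2.34 ± 0.36 CPM to 0.4 ± 0.25 CPM in clone E3 (log2 fold change -2.57, FDR = 0.000781) and 0.25 ± 0.08 CPM in clone E5 (-3.23, FDR = 0.000314). Isl1 fell by 0.90 (FDR = 0.014) and 0.79 (FDR = 0.0323), and Lhx9 had 0.57 (FDR = 0.0818) and 0.56 (FDR = 0.106). Lhx9 was called higher in clone E5 (FDR = 0.0492) and not in clone E3 (0.061) when replicate 3 of clone E3 was left out. Msx1 was higher in clone E3 (FDR = 0.00106), from 0.0408 CPM in WT cells to 0.5 CPM.

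Corepressors through which SNAI and ZEB factors act were all tested (16 of 16). In clone E3 0 were higher and 2 lower, with a median of -0.20, and in clone E5 0 were higher and 1 lower, with a median of -0.06. Without replicate 3 of clone E3 the counts were 2 higher and 5 lower, and 1 higher and 6 lower, with medians of -0.04 and -0.05, where 43.2% and 42% of all tested genes passed, against 30.5% and 20.6% on 9 libraries. The genes of the Polycomb complex that methylates histone H3 were Eed with -0.25 (FDR = 0.056) and -0.38 (FDR = 0.0124), Ezh2 with -0.23 (FDR = 0.0622) and -0.18 (FDR = 0.169), and Suz12 with -0.34 (FDR = 0.0765) and -0.26 (FDR = 0.208). Ctbp2 had -0.23 (FDR = 0.139) and -0.22 (FDR = 0.185). Of these values, only that of Eed in clone E5 passed the test on 9 libraries. Without replicate 3 of clone E3, Eed (FDR = 0.00403 and 0.000454), Ezh2 (0.0153 and 0.0384) and Suz12 (0.038 and 0.00599) passed in both clones. Ctbp2 then passed in clone E5 (FDR = 0.0276) and not in clone E3 (0.163).

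Regulators of the stability of the factors, chiefly kinases, ubiquitin ligases and deubiquitinases that act on SNAIL, were all tested (16 of 16). In clone E3 3 were higher and 3 lower (median -0.18), and in clone E5 2 were higher and 0 lower (median 0.06). With replicate 3 of clone E3 left out, 5 were higher and 5 lower in clone E3, and 6 higher and 1 lower in clone E5, beside the same 43.2% and 42% of all tested genes (30.5% and 20.6% on 9 libraries). Pak1, a kinase that phosphorylates SNAIL, rose from 16.1 ± 0.33 CPM to 24.8 ± 0.39 CPM in clone E3 (0.62, FDR = 0.000776) and 32.3 ± 2.71 CPM in clone E5 (1.01, FDR = 3.85e-05). Cops5, a subunit of the COP9 signalosome, rose by 0.36 (FDR = 0.0333) and 0.56 (FDR = 0.00567). Usp27x fell by 0.70 (FDR = 0.00624) in clone E3 and had 0.37 (FDR = 0.107) in clone E5, and Btrc rose by 0.33 (FDR = 0.0211) in clone E3 and had 0.21 (FDR = 0.131) in clone E5. Usp27x (FDR = 0.0312) and Btrc (0.0193) were called higher in clone E5 when replicate 3 of clone E3 was left out.

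Of 20 classical genes repressed by the factors, 8 were tested, and Cdh1 and Epcam were not, for want of counts. In clone E3 3 were higher and 4 lower (median -0.44), and in clone E5 2 were higher and 0 lower (median 0.68), or 3 and 4, and 3 and 0, with replicate 3 of clone E3 left out. Krt8, a keratin of simple epithelia, was 191 ± 8.34 CPM in WT cells, 38.1 ± 6.64 CPM in clone E3 (-2.33, FDR = 2.31e-06) and 370 ± 18.2 CPM in clone E5 (0.95, FDR = 0.000375). Its partner Krt18 was 264 ± 9.55, 125 ± 29 and 558 ± 35.9 CPM (-1.08, FDR = 0.000568, and 1.08, FDR = 0.000672). Krt19 fell by 1.45 (FDR = 0.0182) in clone E3 and had 0.87 (FDR = 0.0715) in clone E5, on 3 to 34 reads a library. Krt19 was called higher in clone E5 (FDR = 0.0448) when replicate 3 of clone E3 was left out. Pkp3, a plakophilin of desmosomes, rose by 0.88 (FDR = 0.00371) in clone E3 and had -0.31 (FDR = 0.252) in clone E5.

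Of 22 classical mesenchymal genes, 18 were tested. In clone E3 11 were higher and 1 lower (median 0.62), and in clone E5 3 were higher and 6 lower (median -0.28), where 15.7% of all tested genes were higher and 14.7% lower in E3, and 8.96% and 11.7% in E5. With replicate 3 of clone E3 left out, 11 were higher and 2 lower in clone E3, and 4 higher and 9 lower in clone E5, of 19 tested, where 43.2% and 42% of all tested genes passed. Mmp3, which encodes stromelysin, rose by 1.45 (FDR = 2.09e-05) in clone E3 and fell by 2.63 (FDR = 3.36e-07) in clone E5. Pdgfrb, a receptor of mesenchymal cells, rose by 2.07 (FDR = 6.91e-05) and fell by 2.07 (FDR = 0.000274), and Col1a1 rose by 0.99 (FDR = 0.0111) and fell by 1.45 (FDR = 0.00392). Loxl2, a lysyl oxidase, moved the other way: it fell from 3.75 ± 0.16 CPM to 0.12 ± 0.04 CPM in clone E3 (-4.87, FDR = 8.21e-07) and rose to 10.1 ± 1.19 CPM in clone E5 (1.42, FDR = 6.87e-05). Each of these 4 genes differed between the clones, with FDRs of 8.52e-05 or lower. Only 2 members were called higher in both clones on 9 libraries, and they are named after their values were seen. Vim, which encodes vimentin, rose by 0.40 (FDR = 0.0301) in clone E3 and 0.66 (FDR = 0.00335) in clone E5, and S100a4 rose by 0.70 (FDR = 0.0127) and 0.81 (FDR = 0.00859). Neither passed the test between the clones on 9 libraries (FDR = 0.122 and 0.665). Without replicate 3 of clone E3, both were higher in clone E5 than in clone E3. The log2 differences were then 0.387 for Vim (FDR = 0.00421) and 0.389 for S100a4 (FDR = 0.0022).

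A list of epithelial transcription factors and the splicing regulators Esrp1 and Esrp2, which oppose EMT, had 7 of 14 genes tested. Esrp2 was tested and is among those lower in clone E3 (-2.76, FDR = 0.00216). In clone E3 2 were higher and 3 lower (median 0.18), and in clone E5 3 were higher and 0 lower (median 0.45). The E3 median was -0.28 when replicate 3 was left out. Cdx2, an intestinal homeobox factor, fell from 7.29 ± 0.23 CPM to 0.32 ± 0.13 CPM in clone E3 (-4.52, FDR = 8.21e-07) and rose to 11.2 ± 0.51 CPM in clone E5 (0.62, FDR = 0.016). Foxa2 rose in both clones, by 0.77 (FDR = 0.0016) and 0.81 (FDR = 0.00147). Grhl2 had 1.13 (FDR = 0.0679) in clone E3 and rose by 2.03 (FDR = 0.00477) in clone E5, from 0.15 ± 0.06 CPM, and Klf5 fell by 0.76 (FDR = 0.00115) in clone E3 and had 0.16 (FDR = 0.386) in clone E5.

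**Figure D5:**
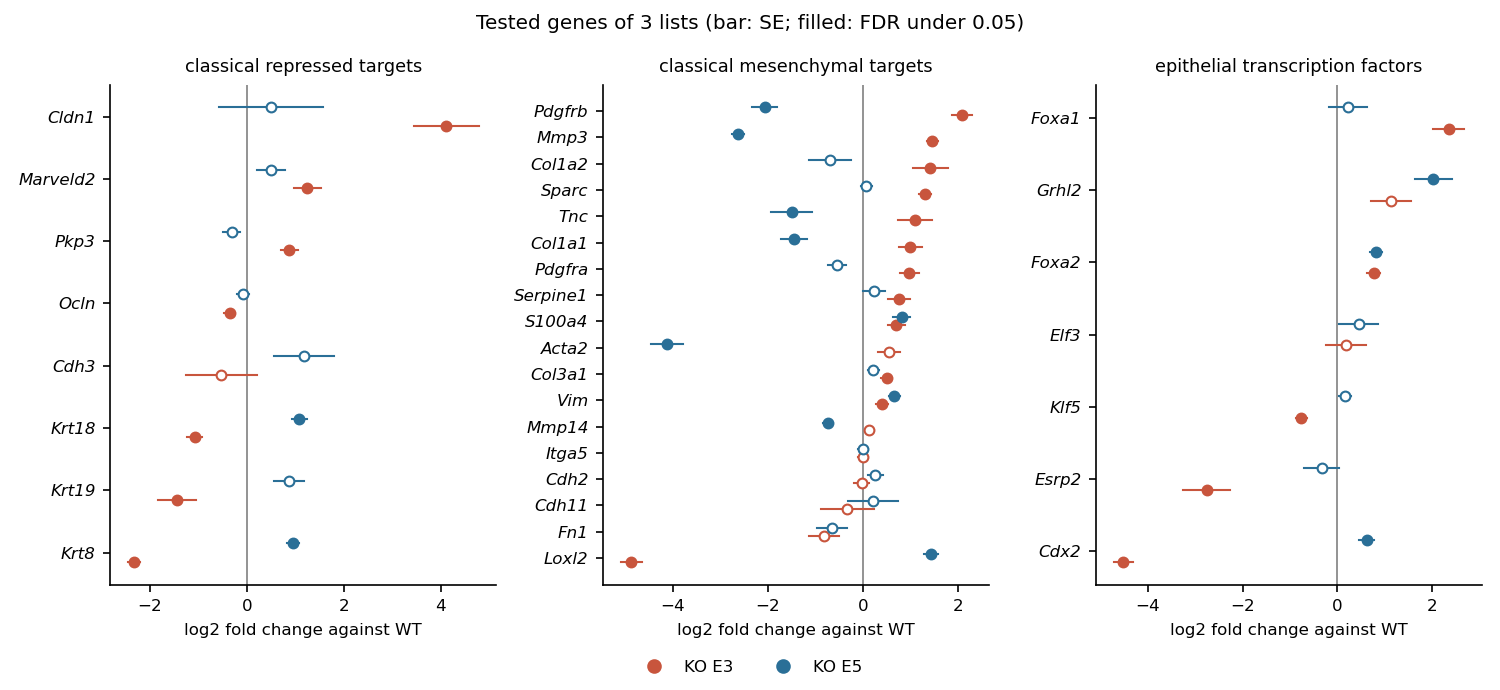
log2 fold change against WT (x axis) of the tested genes of 3 lists in KO E3 (red) and KO E5 (blue). The list of epithelial transcription factors also holds Esrp2, a splicing regulator. Bars are SE and filled points passed an FDR of 0.05. Of the mesenchymal genes, 11 are filled on the higher side in KO E3 and 6 on the lower side in KO E5, and Krt8, Krt18 and Cdx2 lie on opposite sides of 0.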

How the data were processed

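Polyadenylated RNA of 9 LLC libraries (3 WT, 3 KO E3, 3 KO E5) was sequenced in paired-end mode from a directional kit. Before deposit, the authors used FastQC, Trimmomatic and STAR with GRCm39, and they deposited raw counts for each gene, neither normalized nor pooled. Which counter and strand setting they used, and which annotation release, is not given in the sources used here, so counts of overlapping genes are uncertain. Every column named a sample and every row a gene. Of the rows, 375 shared a symbol with another, none of them a factor.

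The counts were tested with edgeR 4.0.16 in R 4.3.3 (quasi-likelihood test, TMM scaling, filterByExpr with a minimum count of 10 and total of 15). The 9 libraries entered 1 model without a replicate term, and FDRs were adjusted by Benjamini-Hochberg over 14593 genes. Each SE was derived from the fold change and its F statistic. DEGs passed an FDR of 0.05 with a log2 fold change beyond 1 in either direction. Exon lengths came from GENCODE M39, limited to the gene bounds in the deposited table. On counts simulated for clone E3 against WT (14359 genes), the test recovered 95 of 100 genes changed by 1 on the log2 scale and 100 of 100 changed by 2, with 11 false calls. These numbers describe simulated counts. They do not show how the test performs on the observed libraries, where 1 replicate of clone E3 stood apart. The replicate numbers did not pair the libraries: deviations from the line means correlated at -0.17 to 0.05 between libraries of the same number.

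The factors and gene lists were chosen with earlier results of these data known. All factors were named. Of each list, up to 4 genes were named by rule, those with the smallest value of the larger FDR of both clones against WT. A few others were named outside it. The 3 genes most like each called factor (mean log2 CPM above 1) and counted overlapping genes were named too. A gene that this rule names is not reported here. Alternatives were DESeq2 1.42.0, DESeq2 scaling within edgeR, upper-quartile scaling, omission of the filter, a minimum of 10 counts in all libraries, fits of 2 lines at a time, a replicate block and each library left out. Chosen after the data were seen were limma 3.58.1 (voom with library weights), the lists without KO E3 replicate 3, and lengths of the canonical transcript or of all annotated exons. Intervals and floors cover counting error and the spread between these libraries.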

Additional observations from a re-analysis of the deposited data

Results flagged for a closer look

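4 factors differed between the clones, by the edgeR test of clone E5 against clone E3 in the fit of all 9 libraries. With only the libraries of the clones fitted, Snai1 and Snai2 were called, while Prrx1 (FDR = 0.0788) and Tcf3 (FDR = 0.0955) were not. Snai1 was lower in clone E5, with a log2 difference of -1.301 (FDR = 1.46e-05), and all 3 libraries of clone E5 lay below those of clone E3. Snai2 was higher in clone E5, with 0.7407 (FDR = 0.000833), in 3 of 3 libraries. Prrx1 was higher in clone E5, with 0.4669 (FDR = 0.0282), in 3 of 3 libraries, although both clones were below WT. Tcf3 was higher in clone E5, with 0.2803 (FDR = 0.0211), in 3 of 3 libraries. Among all tested genes, 31.9% differed between the clones at this FDR, and the cause of these differences was not tested.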

How the results depend on the processing

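Of 510 values of the factors under the alternatives, 456 kept their direction and their side of an FDR of 0.05, 18 lost a call, 13 gained one and 23 changed sign. The calls of Prrx2 in both clones, and of Prrx1, Snai1, Snai2 and Tcf3 in clone E3, held in every alternative run. The cause of the changes below was not tested. Genes called in clone E5 numbered 3012, against 6596 when only E5 and WT were fitted and 8575 with limma weights. Leaving out 1 library at a time gave 1767 to 6246 genes for E5, 2875 to 6423 for E3 (4445 on 9 libraries) and 3235 to 6555 between the clones (4661), the highest each time without KO E3 replicate 3. Factors called in clone E5 were 2, but 4 with only E5 and WT, 1 under the replicate block, 6 with limma and 1 to 4 with a library left out. Between the clones they were 4, but 2 with only the clones fitted (Prrx1 then had an FDR of 0.0788) and 2 to 6 with a library left out. The replicate block ended the calls of Prrx1 in clone E5 (-0.4999, FDR = 0.0572) and of Tcf3 between the clones (0.2803, FDR = 0.0647), and no other call of a factor. The replicate numbers are not a pairing in the labels. Tcf3 between the clones was also not called under upper-quartile scaling (FDR = 0.115), without the filter (0.0999) or with only the clones fitted (0.0955). Upper-quartile scaling moved the higher share of calls between the clones from 46.1% to 35.8%.

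Sign changes were all in values that did not pass the test on 9 libraries. With limma weights they were Prrx2 (0.06884) and Twist1 (0.01376) between the clones and Zeb2 in clone E3 (0.08183). Upper-quartile scaling turned Tcf4 (-0.06993) and Twist2 (-0.0252) between the clones and Zeb1 in clone E5 (-0.00844). Zeb1 in clone E5 was also -0.006547 without the filter and -0.004447 with 10 counts in every library. With 1 library left out, values between the clones ran from -0.2244 to 0.1175 for Prrx2, -0.07211 to 0.1281 for Tcf4, -0.1991 to 0.02128 for Twist1, -0.01969 to 0.2939 for Twist2 and -0.2819 to 0.1011 for Zeb2. They ran from -0.1005 to 0.03185 for Snai2 and -0.0251 to 0.03923 for Zeb1 in clone E5, and from -0.2552 to 0.1374 for Zeb2 in clone E3.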

Other observations

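Replicate 3 of clone E3 was at an extreme of its clone for every factor but Snai2. It had the least Zeb1, Zeb2 and Prrx1 and the most Twist1, Twist2, Prrx2, Snai1, Tcf3 and Tcf4, though extremes are common among 3 libraries. In limma's library weights it received 0.0648, against 0.521 to 4.89 for the others. The ratio of Zeb1 to its pair was unaffected, at 71.6% beside 71.9 and 71.3%.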
